A study of Mus musculus with 6 samples.

Results

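The unfolded protein response and the linked ATF4 stress response were examined in 6 mouse cancer cell lines through 32 genes, out of 55401 genes listed in the files. The genes were taken by name: 14 belong to an arm driven by the transcription factors ATF4 and CHOP, 14 to an arm of chaperone and protein degradation genes driven by ATF6 and XBP1, and 4 encode the stress sensors PERK, IRE1 and ATF6 and the factor XBP1. All 32 were found and all 32 passed the filter on low counts, which left 16137 genes for testing. The lines are primary cultures of tumours grown in C57BL/6 mice, 3 of them from wild-type hosts (WT, replicates 2, 4 and 6) and 3 from hosts without Rag1 (Rag1KO, replicates 1, 3 and 7). Rag1 is needed to assemble antigen receptors, so Rag1KO mice lack mature T and B cells, and the comparison asks how tumour cells that grew with and without adaptive immunity differ. Tumours were dissociated and the cells cultured in DMEM with serum before RNA was taken, so the values describe cultured cells. Rag1 itself had 41, 109 and 183 reads in Rag1KO replicates 1, 3 and 7 and 0 in each WT line, so its transcript was found only under the label that names its loss; which part of the gene is deleted is not given in the sources used here. Throughout, WT line and Rag1KO line mean a line that carries that label. Values of a gene are given in the order of replicates 2, 4 and 6 for WT lines and 1, 3 and 7 for Rag1KO lines. The labels name neither the tumour type, the hosts' age or sex, the number of passages, nor whether each line came from its own mouse; p-values therefore measure the spread between these lines, and each line is 1 library.

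Cells that accumulate unfolded protein in the endoplasmic reticulum respond through PERK (gene Eif2ak3), IRE1 (Ern1) and ATF6. PERK phosphorylates the translation factor eIF2, which slows protein synthesis in general while favouring translation of ATF4; amino acid shortage, haem shortage and viral RNA reach ATF4 through other eIF2 kinases. ATF4 and its target CHOP (Ddit3) then raise genes of amino acid supply and feedback, whereas cleaved ATF6 and XBP1 raise chaperones, disulfide isomerases and the machinery that degrades misfolded proteins. Much of this control acts on translation, on splicing of Xbp1 and on cleavage of ATF6. Gene-level counts show none of these steps, and the values below are mRNA levels alone.

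The arms carry different sequence elements in their promoters, and the stretches below show them for members described later. RefSeq promoters (GRCm38.p6, 250 bases before to 50 after the start) were in the table for 29 of the 32 genes, Atf6, Manf and Hyou1 not being among them. The C/EBP-ATF response element, searched as TGATGNAA on both strands, was found for 7 of 14 genes of the ATF4-CHOP arm and for 1 of 12 genes of the chaperone arm, against 4.51% of all 27025 genes in the table (3.97% of its 32851 promoters, since some genes have several). In the following stretches, written 5′ to 3′ along the gene, the capitals mark that element; TTGCATCA is its form on the opposite strand.
Atf3 (chr1:191183411-191183468, minus strand): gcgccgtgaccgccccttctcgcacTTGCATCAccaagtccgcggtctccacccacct
Chac1 (chr2:119351024-119351081, plus strand): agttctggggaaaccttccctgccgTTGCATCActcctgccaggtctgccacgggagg
Asns (chr6:7693210-7693257, minus strand): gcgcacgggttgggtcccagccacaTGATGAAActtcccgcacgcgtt
Nupr1 (chr7:126625548-126625605, minus strand): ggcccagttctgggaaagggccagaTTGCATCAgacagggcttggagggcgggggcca
Fgf21 (chr7:45615597-45615654, minus strand): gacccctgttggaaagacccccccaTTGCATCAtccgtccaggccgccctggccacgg
Vldlr (chr19:27216795-27216852, plus strand): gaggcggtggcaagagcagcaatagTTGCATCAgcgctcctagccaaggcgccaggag

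Trib3 holds the same element within its transcribed part and is not shown. The endoplasmic reticulum stress element, searched on both strands as CCAAT and CCACG parted by 9 bases, was found for 6 of 12 genes of the chaperone arm and 0 of 14 genes of the ATF4-CHOP arm, against 0.137% of all genes (0.119% of promoters). Its other form, ATTGG and CCACG parted by 1 base, was found in the Herpud1 promoter and in 0.0365% of all promoters; the Herpud1 promoter also held the C/EBP-ATF element. Another element, TGACGTGG, was found in 0 member promoters and in 0.676% of all promoters. The stretches below show these elements in capitals, with both copies for Hsp90b1 and both kinds of element for Herpud1. Dnajc3, which also carried the CCAAT and CCACG element, is not shown.
Hspa5 (chr2:34772000-34772068, plus strand): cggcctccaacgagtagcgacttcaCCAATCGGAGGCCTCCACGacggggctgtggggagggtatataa
Hsp90b1 (chr10:86705508-86705681, minus strand): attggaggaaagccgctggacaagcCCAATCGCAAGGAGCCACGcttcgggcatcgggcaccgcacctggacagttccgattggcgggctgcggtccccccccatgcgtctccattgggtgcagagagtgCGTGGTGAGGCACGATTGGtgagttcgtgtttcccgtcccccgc
Pdia6 (chr12:17266466-17266534, plus strand): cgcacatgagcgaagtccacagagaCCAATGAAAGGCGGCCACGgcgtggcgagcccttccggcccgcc
Creld2 (chr15:88819495-88819563, plus strand): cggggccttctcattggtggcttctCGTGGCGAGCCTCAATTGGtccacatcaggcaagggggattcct
Syvn1 (chr19:6046507-6046575, plus strand): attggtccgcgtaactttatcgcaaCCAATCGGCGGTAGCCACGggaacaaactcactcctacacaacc
Herpud1 (chr8:94386292-94386412, plus strand): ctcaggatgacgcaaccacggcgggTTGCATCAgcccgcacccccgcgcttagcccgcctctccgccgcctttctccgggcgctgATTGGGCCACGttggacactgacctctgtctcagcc

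The members are known targets of these factors, so the shares describe the list and were not tested. A match is not evidence of binding in these cells.

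Values are read counts that the authors divided by 1 size factor per library, called normalized counts here, from libraries of 55409583 to 62998051 reads. WT replicate 6 stood apart from the other 5 libraries: it was highest for 27.4% and lowest for 30.5% of the genes tested. Summed markers of fibroblasts and mesenchyme (8 genes) came to 303318 normalized counts there and to 1107178 to 2037471 in the others. 4 of the 8 were below every other line there (Col1a1 at 206 against 478322 to 1051710.2, Thy1 at 0.880 against 29802 to 81487, Col1a2 and Pdgfrb), and the other 4 lay within the range of the others (Col3a1 at 126015 against 105461 to 350041, Pdgfra at 16592 against 7299 to 48300.2, Dcn and Lum). The 7 leukocyte markers summed to 132 to 1779.6, with Ptprc at 3.83 or less and Cd3e at 0 reads. Lyz2 reached 1493 in Rag1KO replicate 1 and Csf1r 429 in Rag1KO replicate 3 (0 and 4.40 in WT replicate 6). The 6 epithelial markers summed to 9.68 to 347, with Epcam at 0 reads. Their highest sum was in WT replicate 4, with Cdh1 at 158, Krt18 at 126 and Krt8 at 58.9. Of the plasma cell markers, a secretory cell type rich in XBP1, Jchain, Mzb1, Tnfrsf17 and Irf4 stayed at or below 3.88, and Sdc1, which other cells also express, lay between 4205 and 21446. The 4 endothelial markers summed to 27.3 to 1483, with Tek at 1243 in Rag1KO replicate 7, the highest line. The 6 melanocyte markers summed to 639 to 2254, most of it Mitf, with Dct at 0 reads. Sox10 was at 323 in Rag1KO replicate 7 and at 0.966 or less in the other lines, and Pmel at 37.0 to 133. Xist was expressed in WT replicates 2 and 4, and Y-linked genes such as Kdm5d in the other 4 lines, so host label and this sex-linked difference largely coincide. The part of these differences in the results below was not tested.

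Between the host labels, none of the 32 genes passed the threshold of an adjusted p of 0.05 in limma, where 0.0062% of all genes tested did. Their adjusted p lay between 0.850 and 0.984. An unadjusted p under 0.05 was reached by 1 member, Ddit3, against 4.67% of all genes. edgeR's quasi-likelihood test also called 0 members and 0% of all genes, and DESeq2 called 0 members and 0.41% of all genes. At an unadjusted p under 0.05 was 1 member in edgeR, against 717 of all 16137 genes tested. In DESeq2 there were 2 members, against 1055 of 16137 genes. WT and Rag1KO libraries did not overlap for Atf4 and Ddit3, which were higher in every line labelled WT (6.49% of all genes were so), and for Syvn1, which was lower (5.6% of all genes). The members' shares, 2 and 1 of 32, were near those backgrounds.

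**Figure D1:**
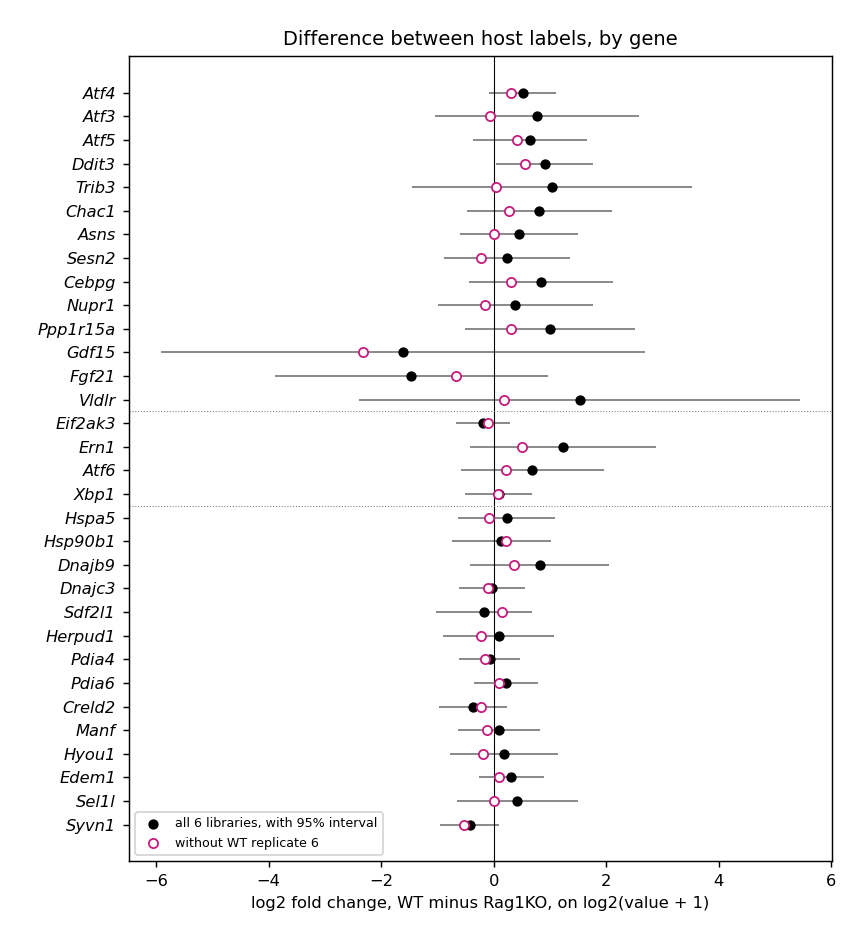
log2 fold change of each member between WT and Rag1KO lines (WT minus Rag1KO, on log2(value + 1)), with all 6 libraries (black, bars are 95% intervals, n = 3 per group) and without WT replicate 6 (open circles); dotted lines part the ATF4-CHOP arm, the sensors with Xbp1 and the chaperone arm. The interval lies above 0 for Ddit3 alone, and the open circles of most ATF4-CHOP genes lie closer to 0 than the black ones.

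The arms were set side by side without a test of their difference. In the ATF4-CHOP arm 12 of 14 genes had a log2 fold change above 0, and the median of the arm was 0.71, which is 1.63-fold. In the chaperone arm this held for 9 of 14, and the median was 0.11, which is 1.08-fold. Over all genes tested the share was 50% and the median 0.00. The mean over the ATF4-CHOP arm was 0.43, lower than its median, with Gdf15 and Fgf21 the 2 members below 0. Without WT replicate 6 the medians were 0.12 and −0.09, with 9 and 6 positive members, so the larger median of the ATF4-CHOP arm rested mostly on that library.

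By library, the mean log2 level of the ATF4-CHOP arm relative to the mean of the 6 libraries was −0.72, 0.14 and 1.23 in the WT lines and −0.62, 0.13 and −0.15 in the Rag1KO lines. The chaperone arm was at 0.02, −0.22 and 0.35 and at −0.17, 0.13 and −0.11 on the same scale. WT replicate 6 was the highest library in both arms, and the ATF4-CHOP arm exceeded the chaperone arm there by 0.87. In WT replicate 2 and Rag1KO replicate 1 the order was the opposite, the differences being −0.74 and −0.45. WT replicate 4 had a difference of 0.36, and Rag1KO replicates 3 and 7 were at 0.00 and −0.04. The groups overlapped in both arms.

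**Figure D2:**
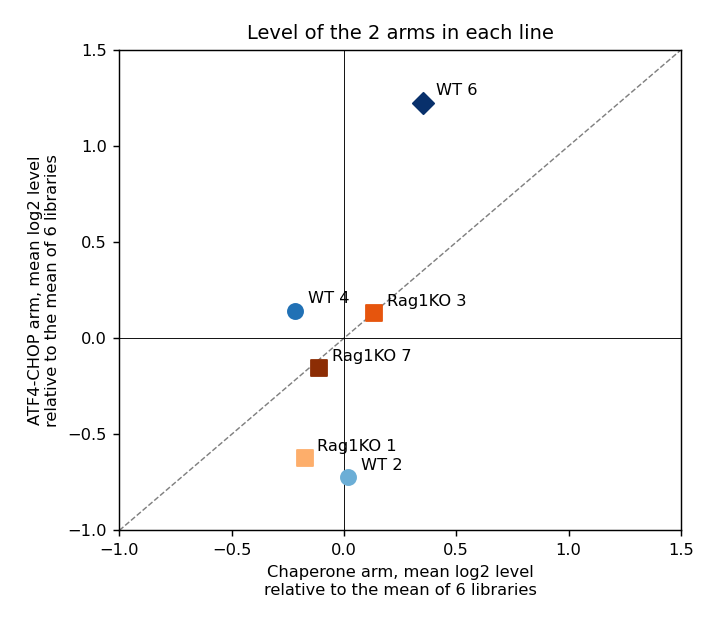
Mean log2(value + 1) of the ATF4-CHOP arm (y axis) and the chaperone arm (x axis), 14 genes each, relative to the mean of 6 libraries, 1 point per line (circles and diamond WT, squares Rag1KO); the dashed line marks equal values. WT replicate 6 lies at 0.35 and 1.23, above the line, and WT replicate 2 and Rag1KO replicate 1 lie below it.

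The highest library was WT replicate 6 for 12 of 14 genes of the ATF4-CHOP arm and for 8 of 14 of the chaperone arm, against 27.4% of all genes. It was more than 2-fold above every other library for 7 and 1 of them, against 4.46% of all genes. In the ATF4-CHOP arm these were Atf3, Trib3, Chac1, Cebpg, Nupr1, Ppp1r15a and Vldlr, and in the chaperone arm Dnajb9. Members and the attention to WT replicate 6 were chosen with earlier results of these data known, so these shares are a description. Of the ATF4-CHOP genes with the C/EBP-ATF element in the promoter window 6 of 7 were highest in WT replicate 6, and of those without it also 6 of 7. More than 2-fold above every other library were 5 of 7 and 2 of 7. At the other end, Rag1KO replicate 1 was the lowest library for 10 of the 14 ATF4-CHOP genes and for 4 of the 14 chaperone genes, against 14.8% of all genes.

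**Figure D3:**
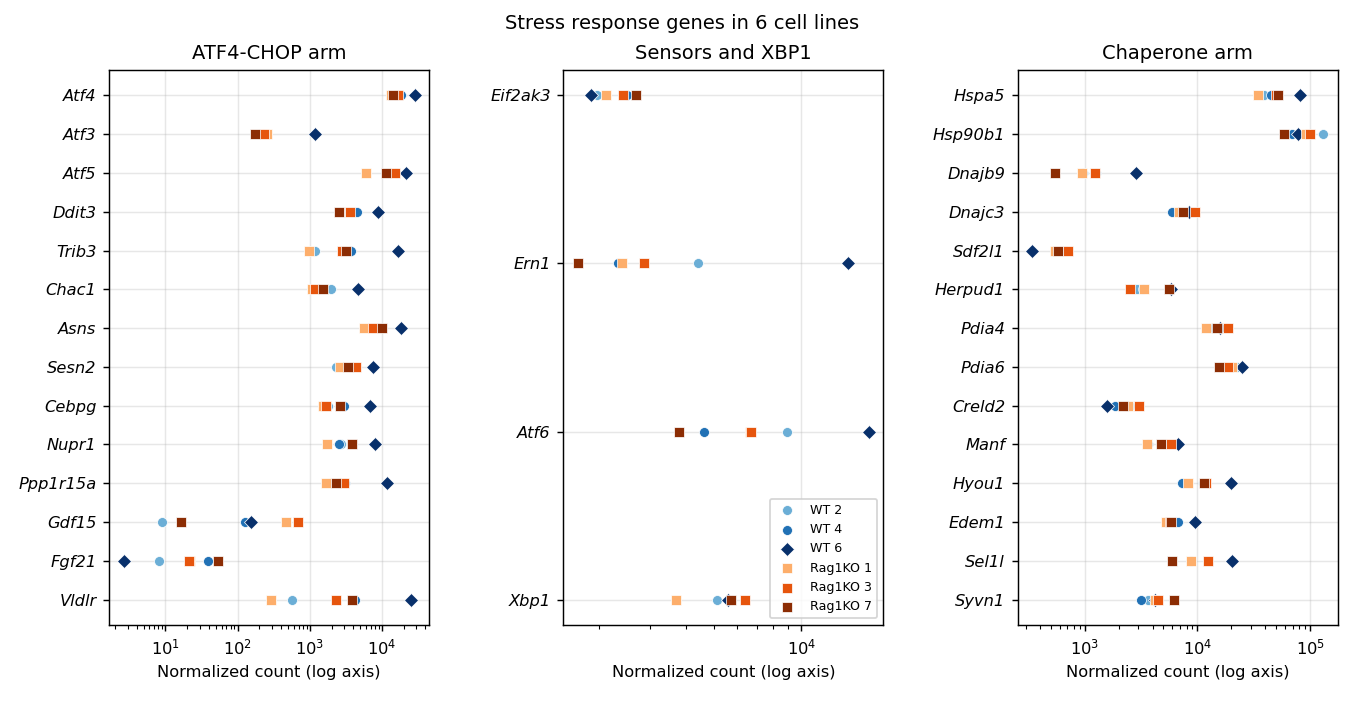
Normalized counts (log axis) of all 32 genes in the 6 lines, 1 point per line (circles and diamond WT, squares Rag1KO), by arm; each panel has its own axis range. The WT replicate 6 diamond lies right of all other points for 12 of 14 ATF4-CHOP genes, for Ern1 and Atf6, and for 8 of 14 chaperone genes.

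Of the transcription factors of the ATF4-CHOP arm, Atf4 (chr15:80255184-80257541), the central activator, had 18029.5, 18188 and 28248 normalized counts in the WT lines and 13212, 16841 and 14231 in the Rag1KO lines (21489 ± 5854 against 14762 ± 1872, mean ± SD, n = 3 each). Each WT line lay above each Rag1KO line, the gap being narrow. The log2 fold change was 0.52 (SE 0.24, 95% interval −0.07 to 1.11, limma adjusted p = 0.850), and 0.30 without WT replicate 6. Ddit3 (chr10:127290774-127296288), which encodes the pro-apoptotic factor CHOP, had 3893, 4554 and 8800.3 in the WT lines and 2539, 3652 and 2562 in the Rag1KO lines (5749 ± 2663 against 2918 ± 636, mean ± SD). Here too the groups did not overlap, and the log2 fold change was 0.90 (SE 0.35, 95% interval 0.04 to 1.77, limma adjusted p = 0.850), or 0.55 without WT replicate 6. The Ddit3 exons share 68 bases, 3.97% of their length, with Mars on the opposite strand, and whether the counting used strand, for libraries from a stranded kit, is not given in the sources used here. They also share 105 bases, 6.13% of their length, with a second annotated entry named Ddit3 on the same strand. That entry had 0 reads in every library.

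Atf3, an ATF4-induced factor, showed a single high line, with 196, 222 and 1189.7 in the WT lines and 254, 232 and 176 in the Rag1KO lines. Outside WT replicate 6 it stayed within 176 to 254, and WT replicate 6 exceeded the next library 4.68-fold. Its log2 fold change of 0.77 went to −0.06 without that library. Cebpg, the dimerization partner of ATF4, was at 1809.7, 2956 and 6887 and 1499.7, 1659 and 2586, again with WT replicate 6 2.33-fold above the next library. Its fold change, 0.84 on the log2 scale, had an SE of 0.52 (limma adjusted p = 0.850). Atf5, a related factor under translational control, spread more evenly, from 5906 in Rag1KO replicate 1 to 21524 in WT replicate 6, and Rag1KO replicate 3, at 15314, was level with WT replicate 4, at 15736 (log2 fold change 0.65, SE 0.42, limma adjusted p = 0.850). Nupr1, a stress-induced chromatin protein, had 8079.7 in WT replicate 6 and 1701 to 3847 in the others (log2 fold change 0.38, and −0.16 without WT replicate 6).

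The feedback regulators were also highest in WT replicate 6. Trib3, a pseudokinase induced by ATF4 and CHOP, had 1171, 3763 and 16580.0 in the WT lines and 963, 2760.0 and 3156 in the Rag1KO lines. The lines fell into a graded series, with Rag1KO replicate 1 and WT replicate 2 lowest and WT replicate 6 17.2-fold above the lowest. A log2 fold change of 1.04 came with an SE of 1.02, and it was 0.05 without WT replicate 6. Ppp1r15a encodes GADD34, the subunit that directs a phosphatase to eIF2. Its values were 2525, 3099 and 11836 and 1670.3, 2957 and 2336, WT replicate 6 being 3.82-fold above the next library (95% interval of the log2 fold change −0.52 to 2.52, limma adjusted p = 0.850).

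Effectors of amino acid and redox metabolism followed with smaller differences. Chac1, which degrades glutathione, was at 1962, 1129.7 and 4660.2 and 1080.0, 1169 and 1504. Asns, the asparagine synthetase gene, was at 7284, 7764 and 18567 and 5566, 7497 and 9941, and Sesn2, an inhibitor of mTORC1 signalling, at 2313, 3683 and 7458 and 2637, 4344 and 3412. In all 3 genes WT replicate 6 was highest, 2.38-fold, 1.87-fold and 1.72-fold above the next library, while the other 5 lines of both labels overlapped. The log2 fold changes were 0.81, 0.45 and 0.23, and 0.27, 0.01 and −0.22 without WT replicate 6.

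Among members that act at or outside the cell surface, Vldlr, the very low density lipoprotein receptor gene induced by ATF4, varied most between lines for an abundant transcript. It had 566, 4264 and 25313 in the WT lines and 289, 2319 and 3779 in the Rag1KO lines, a 87.5-fold range. WT replicate 6 was 5.94-fold above the next library, and among the other 5 lines the range was still 14.7-fold, across both labels. Its log2 fold change of 1.53 had a 95% interval of −2.39 to 5.45.

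The stress hormones Gdf15 and Fgf21 did not follow the rest of the arm. Gdf15, a cytokine induced by CHOP and by p53, had 9.06, 126 and 153 in the WT lines and 468, 693 and 16.5 in the Rag1KO lines. 1 line of each label, WT replicate 2 and Rag1KO replicate 7, was far below the other 4, and WT replicate 6, highest for most of the arm, was below Rag1KO replicates 1 and 3. The log2 fold change was −1.61 with an SE of 1.76. Fgf21, a hormone made mainly by liver, was close to the detection limit, with 8, 40 and 3 reads in the WT lines and 23, 18 and 55 in the Rag1KO lines. A count of 0 would allow up to 3 reads, the number found in WT replicate 6. Fgf21 carries the C/EBP-ATF element shown above, and its lowest library was WT replicate 6, at those 3 reads.

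The 3 sensors and Xbp1 did not share a pattern. Eif2ak3, encoding PERK, was nearly even, with 1962, 2501 and 1875 in the WT lines and 2106, 2410.0 and 2683 in the Rag1KO lines, a 1.43-fold range in all. Its lowest library was WT replicate 6, where 12 of the 14 ATF4-CHOP genes were highest, and the log2 fold change was −0.19 (SE 0.20, 95% interval −0.67 to 0.29, limma adjusted p = 0.857). Ern1, encoding IRE1, had 4385, 2327 and 14524 and 2396, 2848 and 1689, so that WT replicate 6 was 3.31-fold above the next library, WT replicate 2. Its log2 fold change was 1.23 (SE 0.67, limma adjusted p = 0.850), and 0.50 without WT replicate 6.

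Atf6 was at 8903, 4608 and 17117 and 6637, 6691 and 3773, ranked as Ern1 was at the top and at the bottom: WT replicate 6, then WT replicate 2, and Rag1KO replicate 7 lowest in both genes. Its log2 fold change was 0.69 (SE 0.52, limma adjusted p = 0.850). Xbp1, the transcript that IRE1 splices, had 5098, 5708 and 5573 and 3688, 6392 and 5691. It was lowest in Rag1KO replicate 1, and WT replicate 6 lay among the other lines although Ern1 was highest there (log2 fold change 0.09, SE 0.24, limma adjusted p = 0.943). Total Xbp1 counts do not separate the spliced from the unspliced form.

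In the chaperone arm, the major luminal chaperones were abundant in every line. Hspa5 (chr2:34771970-34777547) encodes BiP, which binds unfolded chains and holds the sensors inactive. It had 39274, 44779 and 81606 in the WT lines and 34642, 49924 and 51559 in the Rag1KO lines, WT replicate 6 being 1.58-fold above the next library and the other 5 lines overlapping. Its log2 fold change was 0.23 (SE 0.35, 95% interval −0.63 to 1.09, limma adjusted p = 0.897), and −0.09 without WT replicate 6. Hsp90b1, encoding GRP94, had 130361, 68742 and 78733 and 92088, 99017 and 58479.7. It was highest in WT replicate 2, with WT replicate 6 in the middle, so the 2 most abundant chaperones ranked the lines differently. Both promoters carry the stress element.

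Hyou1, a nucleotide exchange factor for BiP, was at 11256, 7338 and 19747 and 8212, 11962 and 11369, with WT replicate 6 1.65-fold above the next library. Of the BiP co-chaperones, Dnajb9 (ERdj4), an XBP1 target, had 1261, 967 and 2823 and 949, 1228 and 542, which made it the chaperone gene with the largest lead of WT replicate 6, 2.24-fold (log2 fold change 0.82, SE 0.50, limma adjusted p = 0.850). Dnajc3 (p58IPK), which also inhibits PERK, spanned only 5919 to 9559, and its log2 fold change was −0.03 (95% interval −0.61 to 0.55). Sdf2l1, a cofactor of BiP and ERdj3, had 658, 686 and 343 and 549, 708 and 577: it was lowest in WT replicate 6 and within 549 to 708 elsewhere, the reverse of Dnajb9.

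The disulfide isomerase genes varied little. Pdia4 lay between 11928 and 18765 normalized counts and Pdia6 between 15435 and 25086, with log2 fold changes of −0.07 (95% interval −0.61 to 0.47) and 0.22 (−0.35 to 0.79). The secreted stress proteins parted ways. Creld2, an isomerase-like protein, was at 2538, 1856 and 1587 and 2425, 3046 and 2176, lowest in WT replicate 6 (log2 fold change −0.37, SE 0.25, limma adjusted p = 0.850). Manf, a neurotrophic factor retained by BiP, was at 4988, 3638 and 6679 and 3573, 5833 and 4789.6, highest in WT replicate 6. For neither gene were the groups separate.

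Genes of endoplasmic reticulum-associated degradation included the 1 chaperone-arm gene with separate groups. Syvn1 (chr19:6046576-6053712), the ubiquitin ligase HRD1, had 3627, 3173 and 4179 in the WT lines and 4197, 4507 and 6168 in the Rag1KO lines. All WT values lay below all Rag1KO values, by a narrow margin between WT replicate 6 and Rag1KO replicate 1. The log2 fold change was −0.43 (SE 0.22, 95% interval −0.95 to 0.10, limma adjusted p = 0.850), and −0.53 without WT replicate 6. Its partner Sel1l, the adaptor of the same ligase, went another way, with 8808, 8708 and 20464 and 8691, 12503 and 6005 and WT replicate 6 1.64-fold above the next library (log2 fold change 0.42, SE 0.44, limma adjusted p = 0.857).

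Edem1, a lectin that delivers misfolded glycoproteins for degradation, had 5395, 6692 and 9437 and 5234, 5738 and 5877. Its other 5 lines differed by only 1.28-fold, the smallest range outside WT replicate 6 among the 32 genes, and WT replicate 6 was 1.41-fold above the next (log2 fold change 0.32, SE 0.24, limma adjusted p = 0.850). Herpud1, a membrane scaffold of the degradation complex, was at 2891, 3309.9 and 5882 and 3365, 2512 and 5566. It had 2 high lines, WT replicate 6 and Rag1KO replicate 7, and its promoter window held an element of both arms.

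Per kilobase of exon, the order of levels was led by the chaperone arm. Averaged over the 6 libraries, Hsp90b1 had 21801 and Hspa5 11893 normalized counts per kilobase, followed by Atf4 at 7687, Atf5 at 6804, Pdia4 at 6128 and Pdia6 at 5257. The differences between Atf4, Atf5 and Pdia4 were within the spread over libraries. Asns, Ddit3 and Trib3 came next, at 3450.2, 2529.7 and 2227 per kilobase. The sensors were lower, with Atf6 at 862, Ern1 at 574 and Eif2ak3 at 374, and Atf3, Gdf15 and Fgf21 closed the order at 176, 132 and 25.5.

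Other genes of the pathway were read from 4 further lists. Of 28 other ATF4 targets, 0 passed the threshold in limma, in edgeR or in DESeq2. At an unadjusted p under 0.05 were 2, 3 and 3, against 754, 717 and 1055 of all 16137 genes tested. A log2 fold change above 0 was found for 25 of the 28, and the median was 0.56, or 0.14 and 18 above 0 without WT replicate 6. For 21 of them WT replicate 6 ranked highest, against 27.4% of all genes. It was more than 2-fold above every other library for 9, against 4.46% of all genes. Because the list and the attention to WT replicate 6 were chosen with earlier results of these data known, these shares are a description and no independent support. The tRNA exporter gene Xpot had 19983, 13925 and 17045 in the WT lines and 12543, 11962 and 9694 in the Rag1KO lines (log2 fold change 0.57, limma adjusted p = 0.850), and the asparaginyl-tRNA synthetase gene Nars 29396, 27328 and 55289 and 18654, 21933 and 22091 (0.77, adjusted p = 0.850). They were the 2 of 28 targets whose groups did not overlap, a share near the 6.49% of all genes higher in every WT line. The serine synthesis gene Psph was at 2049, 1919.5 and 4023 and 1224, 1454 and 1920.1, and Stc2, a secreted stress protein, at 2480.4, 219 and 2625 with the Rag1KO lines at 188 to 439.9, so that Stc2 was high in WT replicates 2 and 6 only.

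A further list, 27 other genes of folding and degradation in the endoplasmic reticulum, had 26 members tested and 0 called by any of the 3 tools, with 0 at an unadjusted p under 0.05 in limma and edgeR and 1 in DESeq2. Its median log2 fold change was 0.05, with 14 positive, and Derl3 had 0 reads in all libraries. WT replicate 6 was the highest line for 11 and the lowest for 5 of the 26 tested, against 27.4% and 30.5% of all genes. Sec24d, a coat protein of vesicles leaving the endoplasmic reticulum, had 8902, 10296 and 6564 in the WT lines and 10778, 12019 and 14455 in the Rag1KO lines, without overlap (log2 fold change −0.55, limma adjusted p = 0.850). Only 1 of the 26 genes tested was lower in every WT line in this way, beside 5.6% of all genes, and 0 were higher in every WT line. Ero1l, an oxidase that recharges disulfide isomerases and a known CHOP target, had 5618, 11913 and 47163 and 4163, 8378 and 4593, WT replicate 6 being 3.96-fold above the next library. Of the lectin chaperones, Canx was at 40091, 37442 and 56321 and 31019, 38149 and 33209 and Calr at 64084, 51416 and 35851 and 59529.9, 64013 and 65915, so that WT replicate 6 was the highest line for the first and the lowest for the second.

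Another list held 14 genes of eIF2, its kinases, its exchange factor eIF2B and its phosphatase. Eif2s3y, the Y-linked copy of the eIF2 gamma subunit, was called by limma and DESeq2 but not by edgeR, with 0 reads in each WT line and 2109, 2944 and 1438 normalized counts in the Rag1KO lines, a mean at least 759-fold lower in WT lines when 3 reads are allowed per library (limma adjusted p = 0.00525). It was the only gene that limma called, 0.0062% of all genes tested. WT replicates 2 and 4 expressed Xist and had 0 reads of Kdm5d too. WT replicate 6 had no reads of Eif2s3y although it expressed Kdm5d. The X-linked copy Eif2s3x had 30213, 22875 and 13918 in the WT lines and 14022, 9819 and 11301 in the Rag1KO lines (log2 fold change 0.88, limma adjusted p = 0.850). It was highest in WT replicates 2 and 4, and WT replicate 6 lay below Rag1KO replicate 1. For both copies, host label and the sex-linked difference cannot be told apart in WT replicates 2 and 4. Eif2s2 had 14958, 13834 and 16019 and 11376, 11419.9 and 12582. It was the 1 gene of the 14 that was higher in each WT line, beside 6.49% of all genes. Eif2s1, whose product carries the phosphorylation site, had 7296, 5286 and 7539 and 6633, 4978 and 2657. The median of the list was 0.12, and the same with Eif2s3y at its bound. An unadjusted p under 0.05 was reached by 2 of the 14 in each of limma, edgeR and DESeq2. Over all 16137 genes tested it was reached by 754, 717 and 1055. Of the other eIF2 kinases, Eif2ak4 (GCN2, which senses amino acid shortage) had 1386 in WT replicate 6 and 1762 to 2667 in the other lines. Eif2ak1 (HRI) had 2101 there and 3228 to 4248 in the others. PERK was lowest there by a narrow margin, at 1875 against 1962 in WT replicate 2. Eif2ak4 and Eif2ak1 were chosen after their values were seen, and Eif2ak2 is not given here. Over the 14 genes of the list, WT replicate 6 was highest for 5 and lowest for 3, against 27.4% and 30.5% of all genes.

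The last list, 14 chaperones of the cytosol and mitochondria, had 0 calls in limma, edgeR and DESeq2, 1 gene at an unadjusted p under 0.05 in each, and a median log2 fold change of 0.30. That gene was Hspa9, the mitochondrial Hsp70, at 43341, 55711 and 80496 in the WT lines and 29971, 34148 and 34196 in the Rag1KO lines (log2 fold change 0.82, limma adjusted p = 0.850). Hspe1 and Clpp were also higher in each WT line, which makes 3 of 14 beside 6.49% of all genes, and the mitochondrial chaperonin gene Hspd1 had 29508, 22049.5 and 37438 and 25960.5, 16116 and 19987. WT replicate 6 was the highest line for 4 and the lowest for 6 of the 14, against 27.4% and 30.5% of all genes. Its mean log2 level relative to the mean of the 6 libraries was 1.06 for other ATF4 targets and −1.22 for this list, which includes Hspb1 at 0 reads and the low Hspa1a and Hspa1b there, beside −0.01 for other endoplasmic reticulum genes and −0.34 for all genes tested.

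**Figure D4:**
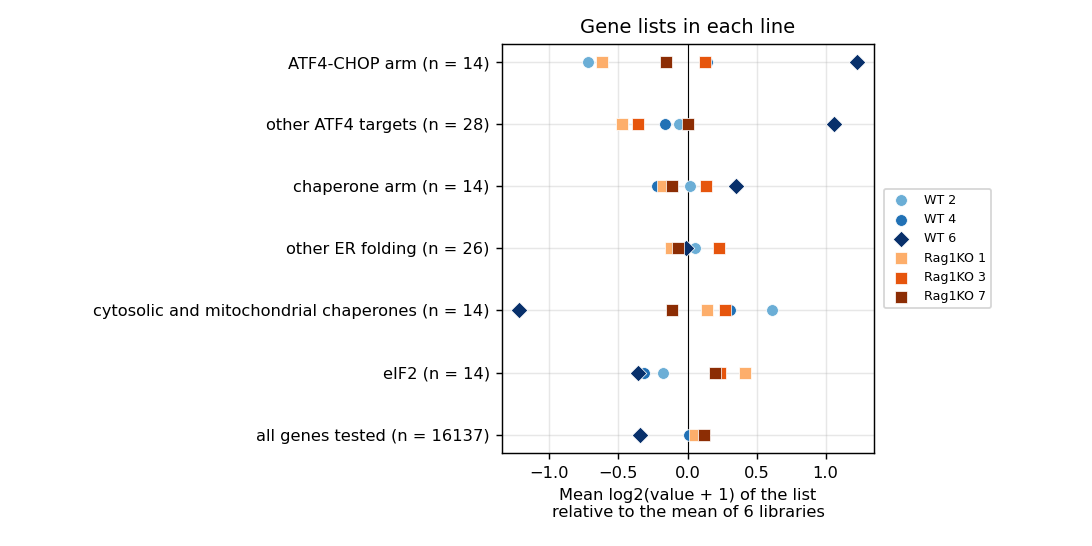
Mean log2(value + 1) of each gene list relative to the mean of 6 libraries (x axis), 1 point per line (circles and diamond WT, squares Rag1KO); n is the number of genes tested. WT replicate 6 is the highest line for the ATF4-CHOP arm (1.23), other ATF4 targets (1.06) and the chaperone arm (0.35), and the eIF2 means of WT lines include Eif2s3y at 0 reads.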

How the data were processed

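RNA-seq values of 6 libraries were used. The deposited signal values are gene read counts that the authors divided by 1 size factor per library: per the file headers each file holds 1 library, and 100% of values were whole within 0.01 reads once multiplied back. Per the submitters' processing notes, the build was mm10, and the tools named are STAR 2.7.9a, Trim Galore 0.6.6, DESeq2 and FastQC; read counter, annotation and strand setting are not given in the sources used here. Groups came from the labels. Genes kept by filterByExpr (16137) were tested with limma 3.58.1 on log2(value + 1), WT minus Rag1KO, two-sided, Benjamini-Hochberg adjusted over all of them. Alternatives were edgeR 4.0.16, DESeq2 1.42.0, 2 other scalings, a pseudocount of 0.1, 2 other filters and leaving out each library. The fits were also run on simulated data (R 4.3.3, Python 3.11.15), with changes larger than any member's in the main fit. That run does not show how well changes of the members' size can be found. Exon lengths and positions are from GENCODE M21 (55141 of 55401 IDs matched). All members are named; other lists contribute the up to 4 genes of lowest p, and Ero1l, Calr, Hspd1, Hspa8, Eif2ak1, Eif2ak4, Hspb1, Hspa1a, Hspa1b, Fkbp11, Cth and Slc7a11 were chosen after their values were seen. Members, lists and the attention to WT replicate 6 were chosen with earlier results of these data known. Exons of other genes overlap at most 10.3% of a member's exon length. Limits from counts of 0 cover counting error only.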

Additional observations from a re-analysis of the deposited data

How the results depend on the processing

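No member passed the threshold under any of the 13 alternatives, the lowest adjusted p of a member being 0.652. The number of genes called among all tested was 1 in limma, 0 in edgeR and 65 in DESeq2, and between 0 and 5 when 1 library was left out, 5 without WT replicate 6 and 0 without any other. Those 5 were Xist and the Y-linked genes Ddx3y, Eif2s3y, Kdm5d and Uty, so they follow the sex-linked difference between the remaining lines, which coincides with host label there. Another test, scaling, pseudocount or filter changed the sign of 0 members and kept the arm medians between 0.70 and 0.77 for the ATF4-CHOP arm and between 0.10 and 0.12 for the chaperone arm. Single libraries moved them more. The ATF4-CHOP median was 0.12 without WT replicate 6, 0.43 without Rag1KO replicate 1 and 0.69 to 0.88 without any other. The chaperone median was −0.09 without WT replicate 6, 0.02 without Rag1KO replicate 1, 0.25 without Rag1KO replicate 3 and 0.32 without WT replicate 4. Without WT replicate 6, Atf3, Sesn2, Nupr1, Hspa5, Sdf2l1, Herpud1, Manf and Hyou1 changed sign; leaving out any other library changed 1 to 3 signs. Fgf21 did not pass the filter of 1 CPM in 3 libraries. No paired analysis was possible because the groups share no replicate numbers. With 3 lines per group the median SE of a member's log2 fold change was 0.41, which limits what could be detected.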

Other observations

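Of the 14 chaperones of the cytosol and mitochondria, 6 were lowest in WT replicate 6, against 30.5% of all genes, and 4 were highest, against 27.4%. Hspb1, a small heat shock protein gene, had 0 reads there, which allows up to 2.64 normalized counts, and 1036 to 8691 normalized counts in the other 5 lines. The inducible Hsp70 genes Hspa1a and Hspa1b, near-identical copies that can share reads, were at 89.8 and 169 against 2230.1 to 6308 and 3596 to 9331. Fkbp11, a prolyl isomerase of the secretory pathway, was at 7.92 against 709 to 2012. The constitutive Hsp70 gene Hspa8 was lowest in the same line but by less, at 105067 against 119279 to 194403. In the opposite direction, 2 genes of cystine supply were among the ATF4 targets furthest above the other lines in WT replicate 6. Cth, of transsulfuration, was at 7890.5 against 242 to 1241, and Slc7a11, the cystine importer, at 6235 against 231 to 1621. All of these were noticed after the values were seen.

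Trib3, Vldlr and Edem1 ranked the 6 lines in the same order, from Rag1KO replicate 1 through WT replicate 2, Rag1KO replicates 3 and 7 and WT replicate 4 to WT replicate 6. This order, which mixes the host labels, was shared by 62 of the 16137 genes tested, or 0.384%. It is given as a description, found by looking at the values.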
